A study of Mus musculus with 6 samples.

Results

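The 10 genes of leukocyte signalling and of the phagocyte NADPH oxidase described here were Fcer1g, Fcgr2b, Tyrobp, Cd53, Laptm5, Ptprc, Coro1a, Cybb, Cyba and Ncf1. They were taken by symbol, and each had 1 row among the 28450 genes of the deposited table. The table came from livers of 3 Acsm3 knockout mice and of 3 control mice whose genotype is given as WT, all male, 12 weeks old and on normal diet. Each mouse gave 1 library of mRNA captured on beads. Which part of Acsm3, a mitochondrial acyl-CoA synthetase gene, was disrupted, and whether in all cells, is not stated in the labels. The comparison asked how hepatic expression differs when Acsm3 is disrupted.

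Most of these genes are active in blood-derived cells and much less in hepatocytes, so that in whole liver they report mainly on resident and recruited leukocytes. Fcer1g and Tyrobp encode short adaptors whose cytoplasmic tails carry an activating tyrosine motif, the ITAM. Receptors without an ITAM of their own signal through them, and the kinase Syk binds the ITAM of the adaptor once Src-family kinases have phosphorylated it. Cybb and Cyba encode the membrane heterodimer of the phagocyte oxidase, which makes superoxide after cytosolic subunits, Ncf1 among them, have moved to the membrane. In liver, Kupffer cells are the main resident macrophages, and Fcgr2b is also known as an abundant receptor of sinusoidal endothelium. In bulk tissue, more cells of a type and more RNA per cell cannot be told apart.

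The sequences just before the start sites are shown because these genes share lineage factors. The ETS factor PU.1, which drives myeloid genes, binds purine-rich sites with a GAGGAA core, RUNX factors bind TGTGGT, and Sp1 binds the GC box GGGCGG. RefSeq windows of GRCm38.p6, from 250 bases before to 50 bases after a start, were found for 9 of the 10 genes. GAGGAA stood on either strand in windows of 4 of these 9 genes, namely Cybb, Cd53, Laptm5 and Ptprc, and in 28.3% of all 32851 windows. TGTGGT stood in those of 3 genes, Fcer1g, Cd53 and Cybb, against 16.8% of all windows, and GGGCGG in those of 3 genes, Coro1a, Cyba and Ncf1, against 35.7%. A match is a string of letters and not a measured site. The 120 bases around the matches are given below, 5′ to 3′ on the strand of the gene, with GAGGAA or its reverse complement TTCCTC in capitals for Cybb, Cd53, Laptm5 and Ptprc, and GGGCGG in capitals for Cyba. They lie at chrX:9469307-9469426 (minus strand) for Cybb, chr3:106790133-106790252 (minus) for Cd53, chr4:130913196-130913315 (plus) for Laptm5, chr1:138175398-138175517 (minus) for Ptprc and chr8:122432941-122433060 (minus) for Cyba.
Cybb: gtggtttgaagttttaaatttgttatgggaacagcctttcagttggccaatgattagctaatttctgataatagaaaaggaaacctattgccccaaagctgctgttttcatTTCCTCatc
Cd53: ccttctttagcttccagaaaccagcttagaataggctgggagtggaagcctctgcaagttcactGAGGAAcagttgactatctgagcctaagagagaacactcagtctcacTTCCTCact
Laptm5: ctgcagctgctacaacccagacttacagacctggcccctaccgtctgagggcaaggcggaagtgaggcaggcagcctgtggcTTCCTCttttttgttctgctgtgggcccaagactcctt
Ptprc: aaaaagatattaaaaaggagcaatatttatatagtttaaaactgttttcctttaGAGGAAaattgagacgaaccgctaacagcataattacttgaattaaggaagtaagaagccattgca
Cyba: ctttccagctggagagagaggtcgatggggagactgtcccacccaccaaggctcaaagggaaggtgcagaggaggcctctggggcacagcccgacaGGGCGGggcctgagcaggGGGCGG
The gene of the oxidase heavy chain, Cybb, thus has its GAGGAA match just after the RefSeq start, and its light chain partner Cyba has none in this window but has 2 GC boxes, starting at -24 and -6 from the start.

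The libraries were of like depth. The table gives FPKM, a fragment level per gene length and depth, and no counts. The steps between low values implied 15400000 to 16100000 fragments in knockouts and 15600000 to 16300000 in controls. The 10 genes then rested on 57 to 1446 fragments per library, fewest for Ncf1 (57 to 217) and most for Fcgr2b (855 to 1446). Acsm3 was at 0.668, 2.92 and 1.08 FPKM in knockouts 1, 2 and 3, against 33.2, 34.4 and 32.2 FPKM in controls 1, 2 and 3, so the labels and the targeted gene went together. On the first principal component knockout 3 lay at 10.1, between knockouts 1 and 2 (24.6 and 27.7) and the controls (-25.9 to -17.3), and it is given separately below. Of hepatocyte markers, albumin Alb was abundant in every library, at 21103, 22620 and 24029 FPKM in knockouts and 30151, 35931 and 37369 FPKM in controls.

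All 10 genes had higher means in the knockouts, and 8 of them rose past the threshold. These were Laptm5, Cyba, Cybb, Fcer1g, Cd53, Coro1a, Tyrobp and Ptprc, with means 1.90-fold (Tyrobp) to 2.95-fold (Laptm5) those of controls. Ncf1 and Fcgr2b did not pass. The test was limma on log2(FPKM + 1) over 10996 genes averaging 1 FPKM or more, and a gene was called at a Benjamini-Hochberg adjusted p under 0.05. Fold changes below are on that log2 scale, knockout minus control, ± the moderated SE. They understate changes of genes with low FPKM. Of all tested genes 13.9% were called higher and 2.61% lower. The median fold change was 0.92 over the 10 genes and 0.13 over all tested genes. After median-ratio rescaling, which sets the median of all genes to 0, 5 of the 10 genes were called higher, as were 7.57% of all tested genes. Of all calls in either direction, 53.0% were then higher, against 84.2% as deposited. In 9 of the 10 genes all knockouts lay above all controls, as they did in 33.9% of all tested genes, and Fcgr2b was the exception. None of the 10 had all knockouts below all controls, as 7.91% of all tested genes did. Ptprc passed the filter on low values only through the knockouts, and without it 7 of 9 genes were called, against 12.7% of genes whose control mean reached 1 FPKM.

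**Figure D1:**
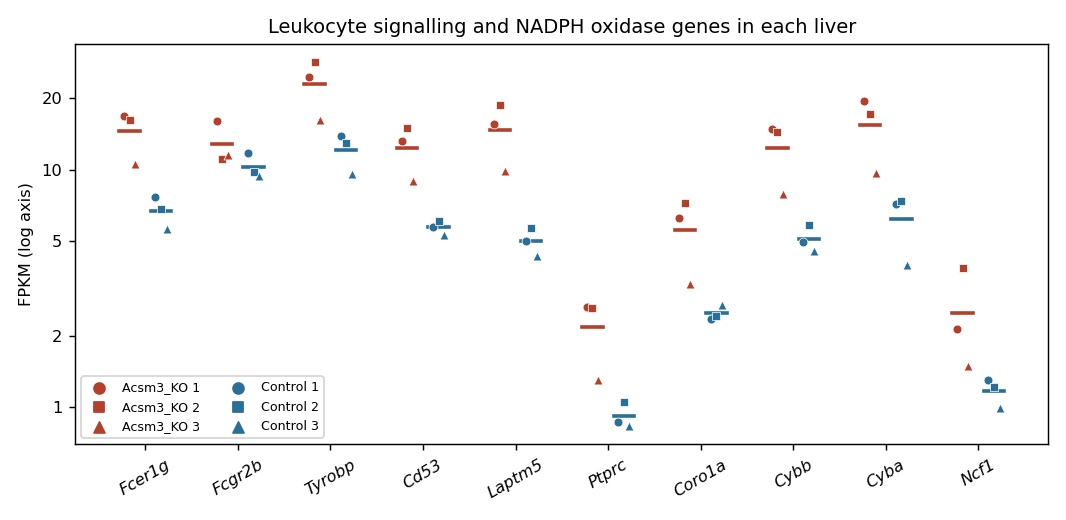
FPKM on a log axis of the 10 genes in each of 6 livers, knockouts in red and controls in blue, with 1 marker per mouse and bars for group means of 3 mice. Knockouts 1 and 2 lie above every control for every gene but Fcgr2b, where knockout 2 at 11.1 FPKM lies below control 1 at 11.7 FPKM.

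The genes of the ITAM adaptors rose together. Fcer1g, which encodes the common gamma chain of Fc receptors (ENSMUSG00000058715, chromosome 1, 171229572 to 171234365, minus strand, GRCm38), was at 16.8, 16.1 and 10.6 FPKM in knockouts 1, 2 and 3, against 7.70, 6.86 and 5.61 FPKM in controls 1, 2 and 3. The groups did not overlap, and the lowest knockout was 1.38 times the highest control. The fold change was 0.99 ± 0.19 (limma adjusted p = 0.0218, 95% confidence interval 0.55 to 1.43). Tyrobp encodes DAP12, the adaptor of TREM2 and other myeloid receptors (ENSMUSG00000030579, chromosome 7, 30413760 to 30417585, plus strand). It had 24.4, 28.3 and 16.1 FPKM in knockouts, against 13.9, 12.9 and 9.54 FPKM in controls. Knockout 3 lay only 1.16 times above the highest control, and the fold change was 0.85 ± 0.22 (limma adjusted p = 0.0448). Tyrobp had the highest FPKM of the 10 genes in both groups, at 23.0 ± 6.23 FPKM in knockouts and 12.1 ± 2.26 FPKM in controls (SD, n = 3 each).

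Fcgr2b, the inhibitory IgG receptor whose tail carries the inhibitory motif ITIM, differed least (ENSMUSG00000026656, chromosome 1, 170958617 to 170976547, minus strand). Its level was 16.0, 11.1 and 11.5 FPKM in knockouts, against 11.7, 9.75 and 9.44 FPKM in controls. Knockout 1 was high, and knockouts 2 and 3 lay within the range of the controls. The fold change of 0.28 ± 0.15 did not pass (limma adjusted p = 0.230), and its 95% confidence interval was -0.08 to 0.64. Within each mouse, Fcgr2b stood at 6.07, 4.22 and 8.81 times the FPKM of Ptprc in knockouts 1, 2 and 3, against 13.5, 9.30 and 11.3 times in controls 1, 2 and 3. This ratio does not depend on how libraries are scaled, but Ptprc passed the filter on low values only through the knockouts. It was lower in all 3 knockouts, by 0.89 on the log2 scale (2.61 ± 0.53 in knockouts, 3.49 ± 0.27 in controls, SD, n = 3 each, exact two-sided permutation p = 0.1, the smallest that 3 against 3 allows, 0.4 adjusted over 4 ratios). With 1 FPKM added to both genes, as for the fold changes, the log2 ratio of Fcgr2b over Ptprc differed by -0.42. The activating receptors Fcgr3 and Fcgr4 are paralogs in the same cluster on chromosome 1, and how fragments were divided among them is uncertain. An antisense gene, Gm38204, covers 155 bp of Fcgr2b exons at a mean of 0.171 FPKM.

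**Figure D2:**
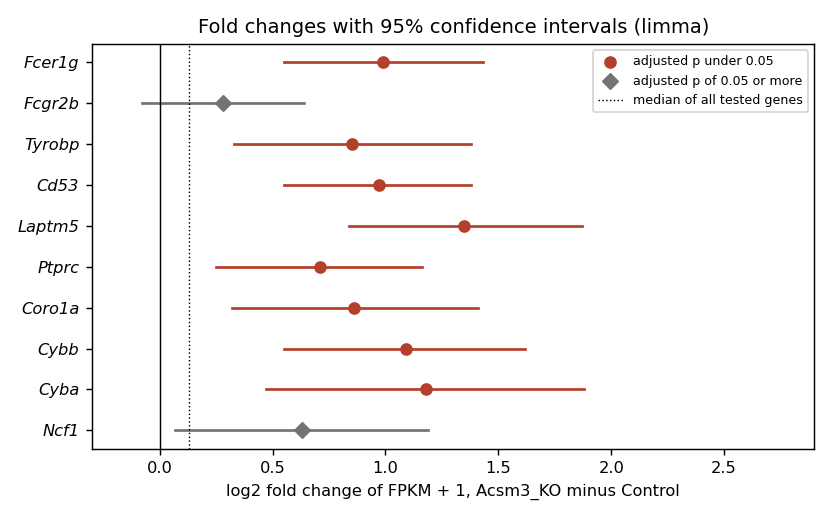
Log2 fold change of FPKM + 1, knockout minus control, for each gene with the 95% confidence interval from limma (3 mice per group). Red circles are the 8 genes with adjusted p under 0.05, grey diamonds Fcgr2b and Ncf1, and the dotted line is the median of all tested genes, 0.13.

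The membrane and cytoskeletal genes of leukocytes included the largest change of the set. Laptm5, a lysosomal membrane protein of blood cells that in lymphocytes promotes the breakdown of antigen receptors (ENSMUSG00000028581, chromosome 4, 130913125 to 130936141, plus strand), was at 15.6, 18.7 and 9.87 FPKM in knockouts, against 4.99, 5.67 and 4.35 FPKM in controls. Even knockout 3 was 1.74 times the highest control. The fold change was 1.35 ± 0.22 (limma adjusted p = 0.0153). Cd53, a tetraspanin found on nearly all leukocytes (ENSMUSG00000040747, chromosome 3, 106759921 to 106790149, minus strand), had 13.2, 15.0 and 8.94 FPKM in knockouts, against 5.76, 6.09 and 5.30 FPKM in controls. The controls were close to each other, with an SD of 6.97% of their mean, where the knockouts had 25%. The fold change of Cd53 was 0.97 ± 0.17 (limma adjusted p = 0.0200).

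Ptprc encodes CD45, the receptor phosphatase that marks all nucleated blood cells and keeps Src-family kinases active (ENSMUSG00000026395, chromosome 1, 138062861 to 138175708, minus strand). It was at 2.64, 2.62 and 1.3 FPKM in knockouts, against 0.865, 1.05 and 0.834 FPKM in controls. All knockouts were higher, knockout 3 by the least. The fold change was 0.71 ± 0.19 and lay at the threshold (limma adjusted p = 0.0497), while the means, 2.19 ± 0.767 FPKM in knockouts and 0.916 ± 0.116 FPKM in controls (SD, n = 3 each), differed 2.39-fold. The lengths at which FPKM moved in whole fragments were union exon lengths, 18313 bp for Ptprc, so a low FPKM of Ptprc still rested on 239 to 754 fragments. Coro1a, the haematopoietic coronin that binds actin (ENSMUSG00000030707, chromosome 7, 126699773 to 126707787, minus strand), was at 6.25, 7.21 and 3.31 FPKM in knockouts, against 2.35, 2.43 and 2.70 FPKM in controls. Knockout 3 again lay near the controls, 1.23 times above the highest. The fold change was 0.86 ± 0.23 (limma adjusted p = 0.0477).

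Both genes of the oxidase heterodimer rose at the mRNA level. Cybb encodes gp91phox, the catalytic chain that passes electrons from NADPH to oxygen (ENSMUSG00000015340, chromosome X, 9435252 to 9487771, minus strand). Its level was 14.8, 14.4 and 7.93 FPKM in knockouts, against 4.96, 5.84 and 4.56 FPKM in controls, without overlap. The fold change was 1.09 ± 0.23 (limma adjusted p = 0.0273). Cyba encodes p22phox, which stabilises gp91phox and is made in many cell types beside phagocytes (ENSMUSG00000006519, chromosome 8, 122424776 to 122432930, minus strand). It had 19.5, 17.1 and 9.64 FPKM in knockouts, against 7.18, 7.36 and 3.98 FPKM in controls. Control 3 was low and spread the controls to 6.17 ± 1.90 FPKM (SD, n = 3), and the fold change was 1.18 ± 0.30 (limma adjusted p = 0.0415).

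The ratio of Cybb to Cyba was 0.761, 0.839 and 0.823 in knockouts, against 0.691, 0.794 and 1.14 in controls, so the groups overlapped. The difference in the log2 ratio was -0.09 (exact two-sided permutation p = 0.9, 0.9 adjusted over 4 ratios, 3 mice per group). Ncf1 encodes p47phox, the organiser subunit that brings the cytosolic complex to the heterodimer (ENSMUSG00000015950, chromosome 5, 134220053 to 134229625, minus strand). It was at 2.14, 3.85 and 1.49 FPKM in knockouts, against 1.3, 1.22 and 0.990 FPKM in controls. All knockouts lay higher, but knockout 2 stood apart from the other two, and the fold change of 0.63 ± 0.24 did not pass (limma adjusted p = 0.109, 95% confidence interval 0.07 to 1.19). Ncf1 over Cybb differed by -0.24 in the log2 ratio (exact permutation p = 0.5, 0.667 adjusted over 4 ratios) and Tyrobp over Fcer1g by -0.19 (exact permutation p = 0.2, 0.4 adjusted over 4 ratios). Exons of Gtf2ird2, on the other strand and at a mean of 0.876 FPKM, cover 408 bp of Ncf1 exons, and the labels do not say whether strand was kept.

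By level, the order in knockouts was Tyrobp at 23.0, Cyba at 15.4, Laptm5 at 14.7, Fcer1g at 14.5, Fcgr2b at 12.9, Cybb and Cd53 at 12.4 each, Coro1a at 5.59, Ncf1 at 2.49 and Ptprc at 2.19 FPKM. In controls it was Tyrobp at 12.1, Fcgr2b at 10.3, Fcer1g at 6.72, Cyba at 6.17, Cd53 at 5.72, Cybb at 5.12, Laptm5 at 5.0, Coro1a at 2.49, Ncf1 at 1.17 and Ptprc at 0.916 FPKM. Fcgr2b thus stood below Tyrobp alone in controls, and below Cyba, Laptm5 and Fcer1g as well in knockouts. FPKM divides fragments by union exon length, which was 667 bp for Tyrobp and 18313 bp for Ptprc, so the order between genes depends on these lengths. By fragments Ptprc, at 239 to 754 per library, lay above Tyrobp, at 100 to 290. In knockouts neighbours in this order from Cyba to Cd53 differed by less than their SDs, which were 2.74 to 5.13 FPKM. In controls neighbours from Fcer1g to Laptm5 differed by less than the larger of their SDs, which were 0.398 to 1.90 FPKM over these genes.

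The genes shared much of their order across mice. Knockout 3 was the lowest knockout for 9 of the 10 genes, Fcgr2b being the exception, and control 3 the lowest control for 9, Coro1a being the exception. Knockout 1 was the highest knockout for 5 genes (Fcer1g, Fcgr2b, Ptprc, Cybb and Cyba) and knockout 2 for the other 5. Averaged over the 10 genes, log2(FPKM + 1) lay 1.08, 1.14 and 0.45 above the control mean in knockouts 1, 2 and 3, against 0.08, 0.08 and -0.16 in controls 1, 2 and 3. For the 8 called genes, the excess of knockout 3 over the control mean was 19.3% (Coro1a) to 40.0% (Fcer1g and Laptm5) of the mean excess of knockouts 1 and 2, with a median of 29.1%. Over all 1532 genes called higher, that median was 67.8%.

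**Figure D3:**
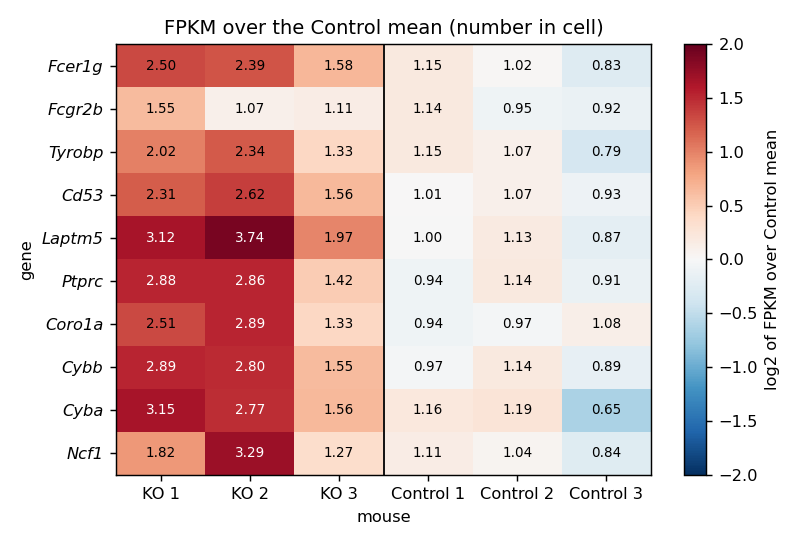
Each cell gives the FPKM of a gene in a mouse over the mean of the 3 controls, coloured on a log2 scale, with knockouts left of controls. Knockout 3 is paler than knockouts 1 and 2 for each called gene, at 1.33 (Tyrobp and Coro1a) to 1.97 times (Laptm5) the control mean.

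The calls depended on which mice were in the fit. Without knockout 3, 9 of the 10 genes were called, Ncf1 added. Without knockout 1, control 2 or control 3 none was called by limma, and 8 had an unadjusted p under 0.05 in each of these fits, as did 28.6%, 28.1% and 28.1% of the genes tested in them. With all 6 mice it was 9 of the 10 genes and 35.3% of all tested genes. Without knockout 2 Laptm5 alone was called, and without control 1 Fcer1g and Laptm5. Genes called higher in the whole table, 1532 with all mice, were 402 without knockout 1, 248 without knockout 2, 543 without control 1, 270 without control 2 and 226 without control 3, but 1968 without knockout 3. All 10 fold changes stayed positive in these 6 fits, and that of Laptm5 was 1.17 to 1.60.

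**Figure D4:**
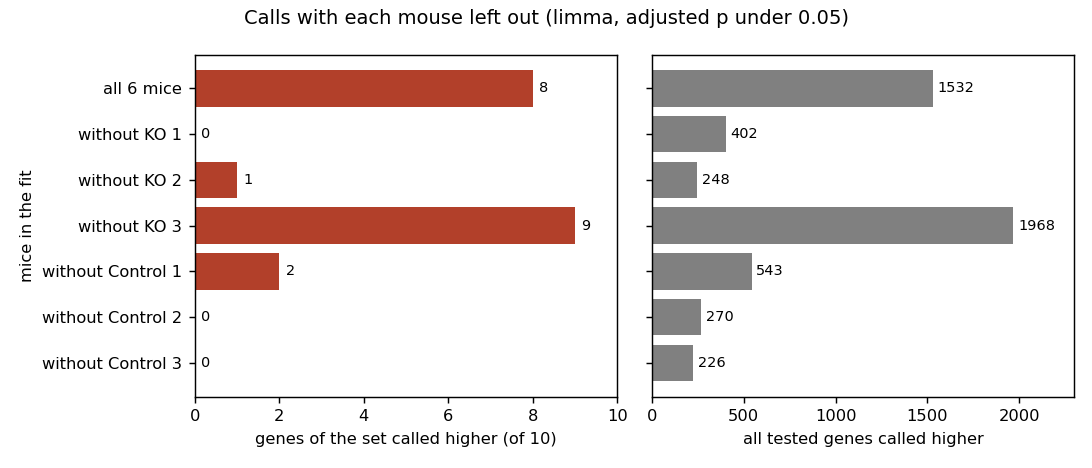
Number of the 10 genes (left) and of all tested genes (right) called higher by limma with all 6 mice and with each mouse left out. The set went from 8 calls with all mice to 0 without knockout 1, control 2 or control 3, and to 9 without knockout 3.

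Among the remaining genes of NADPH oxidases, 2 of 5 tested genes rose and 0 fell (median fold change 0.41, against 0.13 for all tested genes). These were Rap1a (0.41 ± 0.07) and Rac1 (0.26 ± 0.07), small GTPases made in most cells. After median-ratio rescaling limma called 0 of the list, and after quantile normalization 1. Without knockout 3 it called 3, and without any other mouse 0 to 1. The cytosolic subunit Ncf4 was at 2.42, 2.30 and 1.19 FPKM in knockouts, against 1.18, 0.469 and 0.630 FPKM in controls (0.75 ± 0.22, limma adjusted p = 0.0620). The haematopoietic GTPase Rac2 was at 5.32, 4.95 and 2.89 FPKM in knockouts, against 2.39, 2.42 and 1.33 FPKM in controls (0.81 ± 0.23, limma adjusted p = 0.0551). Rac2 was thus higher in every knockout than in every control, and Ncf4 was too, though knockout 3 only just. With a control mean under 1 FPKM, Ncf4 entered the test only through the knockouts, and of the other 4 tested genes 2 were called. Nox4, the constitutive oxidase of non-phagocytic cells, had 8.48, 8.51 and 7.58 FPKM in knockouts, against 6.87, 5.55 and 6.97 FPKM in controls (0.30 ± 0.10, limma adjusted p = 0.0808). Nox1, Nox3, Duox1 and Duox2 reached at most 0.0345 FPKM in a single library.

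Receptors that pair with the Fcer1g and Tyrobp products rose in 6 of 7 tested genes, and 0 fell (median 1.04). Trem2 and Cd300lb, with control means under 1 FPKM, passed the filter only through the knockouts, and of the other 5 receptors 4 were called. Trem2, a lipid-sensing macrophage receptor that signals through DAP12, was at 3.39, 3.10 and 1.45 FPKM in knockouts, against 0.668, 0.230 and 0.45 FPKM in controls (1.3 ± 0.24, limma adjusted p = 0.0216). The high-affinity IgG receptor Fcgr1 was at 4.24, 5.02 and 2.51 FPKM in knockouts, against 1.44, 1.39 and 0.934 FPKM in controls (1.10 ± 0.21, limma adjusted p = 0.0227). Cd300lb rose by 1.10 ± 0.26 and Cd300ld by 1.04 ± 0.17. Fcgr3 (1.03 ± 0.22) and Fcgr4 (0.79 ± 0.21) also rose, so that all 3 activating IgG receptors were called where inhibitory Fcgr2b was not. That difference between receptors was not tested. The high-affinity IgE receptor chain Fcer1a, another partner of the gamma chain, was at 0.0643 FPKM in knockout 1 and listed at 0 in the other mice.

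Downstream of ITAMs, 5 of 14 tested kinases and adaptors rose and 1 fell (median 0.66). Of the 10 with a control mean of at least 1 FPKM, 3 rose, and Plcg2 and Syk entered the test only through the knockouts. The rises included those of the phospholipase Plcg2 (0.71 ± 0.17), the ITAM kinase Syk (0.70 ± 0.15), the protein kinase C isoform Prkcd (0.68 ± 0.17) and the PI3-kinase adaptor Pik3ap1 (0.64 ± 0.17). Syk was at 2.41, 2.41 and 1.44 FPKM in knockouts, against 0.980, 0.884 and 0.761 FPKM in controls. Its relative in T cells, Zap70, fell by 0.55 on the log2 scale (SE 0.12, limma adjusted p = 0.0284), to 1.93, 1.88 and 2.64 FPKM in knockouts, against 3.29, 3.67 and 3.79 FPKM in controls. T cell markers, none of which reached the filter, summed to 2.86 to 5.33 FPKM in knockouts and 1.81 to 2.42 FPKM in controls. Which cells gave the Zap70 level was not tested. Of ITIM receptors and phosphatases, 8 of 16 tested genes rose and 0 fell (median 0.62), and 5 of the 10 with a control mean of at least 1 FPKM. Cd72, Clec4a2 and Inpp5d entered the test only through the knockouts. The 8 included the macrophage receptor Sirpa (1.26 ± 0.28), Cd72 (0.95 ± 0.21), the C-type lectin Clec4a2 (0.83 ± 0.21) and the lipid phosphatase Inpp5d, or SHIP1 (0.80 ± 0.19). The phosphatase Ptpn6, or SHP-1, was at 11.8, 11.3 and 8.45 FPKM in knockouts, against 9.13, 9.22 and 8.74 FPKM in controls (0.19 ± 0.12, limma adjusted p = 0.316). Without knockout 3 the counts of higher genes were 7 for paired receptors, 11 for kinases and adaptors and 14 for ITIM receptors and phosphatases. Without any other mouse they were 0 to 2, 0 to 1 and 0, and the lower call of Zap70 was lost.

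Among relatives of the membrane and actin-binding genes, of 7 tested tetraspanins 3 rose, Cd63 (1.97 ± 0.29), a marker of late endosomes, Cd9 (0.91 ± 0.17) and Cd81 (0.46 ± 0.11). The leukocyte tetraspanin Cd37 was at 2.10, 1.87 and 0.807 FPKM in knockouts, against 0.816, 0.879 and 0.741 FPKM in controls (0.48 ± 0.21, limma adjusted p = 0.15). Cd37 entered the test only through the knockouts, and of the other 6 tested tetraspanins 3 were called. Laptm4b (0.38 ± 0.10) was called and Laptm4a (0.16 ± 0.08) was not, and after median-ratio rescaling neither passed. None of 3 tested coronins passed by limma, and all 3 had an unadjusted p under 0.05, as did 35.3% of all tested genes. Coro7 (0.37 ± 0.11, limma adjusted p = 0.0672), Coro1c (0.43 ± 0.15) and Coro1b each had all knockouts above all controls, as did 33.9% of all tested genes. Of 5 tested CD45 partners and regulators of Src kinases none passed by limma. An unadjusted p under 0.05 was found for 2 of the 5, against 35.3% of all tested genes. These were the kinase Fyn (0.48 ± 0.13, limma adjusted p = 0.0521) and the adaptor Skap2 (0.23 ± 0.08, limma adjusted p = 0.0907). Without knockout 3 limma called 4 tetraspanins, 3 coronins and 2 CD45 partners. Without any other mouse it called 0 to 1 tetraspanins and none of the other genes but Laptm4b, which held without control 1.

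Genes that act with Coro1a on leukocyte actin rose in 7 of 11 tested cases, and 0 fell (median 0.76), led by Evl (1.29 ± 0.28), Plek (1.19 ± 0.20), Myo1f (1.15 ± 0.24) and Arhgdib (0.78 ± 0.18). Of the 9 with a control mean of at least 1 FPKM, which leaves out Myo1f, 6 rose. Of further genes listed as pan-leukocyte 9 of 14 tested rose and 0 fell (median 0.82), and 7 of the 10 with a control mean of at least 1 FPKM. The integrin chain Itgb2, CD18, was at 12.5, 13.8 and 6.08 FPKM in knockouts, against 3.77, 4.18 and 3.48 FPKM in controls (1.22 ± 0.27, limma adjusted p = 0.0304). Cotl1 (1.22 ± 0.25), Cd48 (1.12 ± 0.18) and Ucp2 (1.05 ± 0.24) were also among the 4 largest. Which cells gave the Ucp2 level was not tested. Spi1, which encodes PU.1, was at 5.55, 4.29 and 2.36 FPKM in knockouts, against 2.61, 1.90 and 1.70 FPKM in controls. Its groups overlapped, and 0.68 ± 0.25 did not pass (limma adjusted p = 0.103). Without knockout 3, 11 actin regulators and 14 pan-leukocyte genes were called higher, and without any other mouse 0 to 2 and 0 to 1.

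The 8 genes outside the set whose values over the 6 mice were most like its average were Msn, Cd52, Itpripl2, C3ar1, Gusb, Loxl2, Cd72 and Myo9b. Likeness was the root mean square difference between log2(FPKM + 1) centred on the control mean and the average of the 10 centred genes, and it was 0.04 to 0.07 for these 8. Among the 10 genes themselves it ran from 0.08 (Cd53) to 0.49 (Fcgr2b). Moesin, Msn, was the closest, at 12.3, 13.3 and 7.55 FPKM in knockouts, against 5.35, 5.61 and 4.58 FPKM in controls. The lymphoid and myeloid surface antigen Cd52 was at 7.03, 7.21 and 4.11 FPKM in knockouts, against 3.20, 2.93 and 2.31 FPKM in controls.

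**Figure D5:**
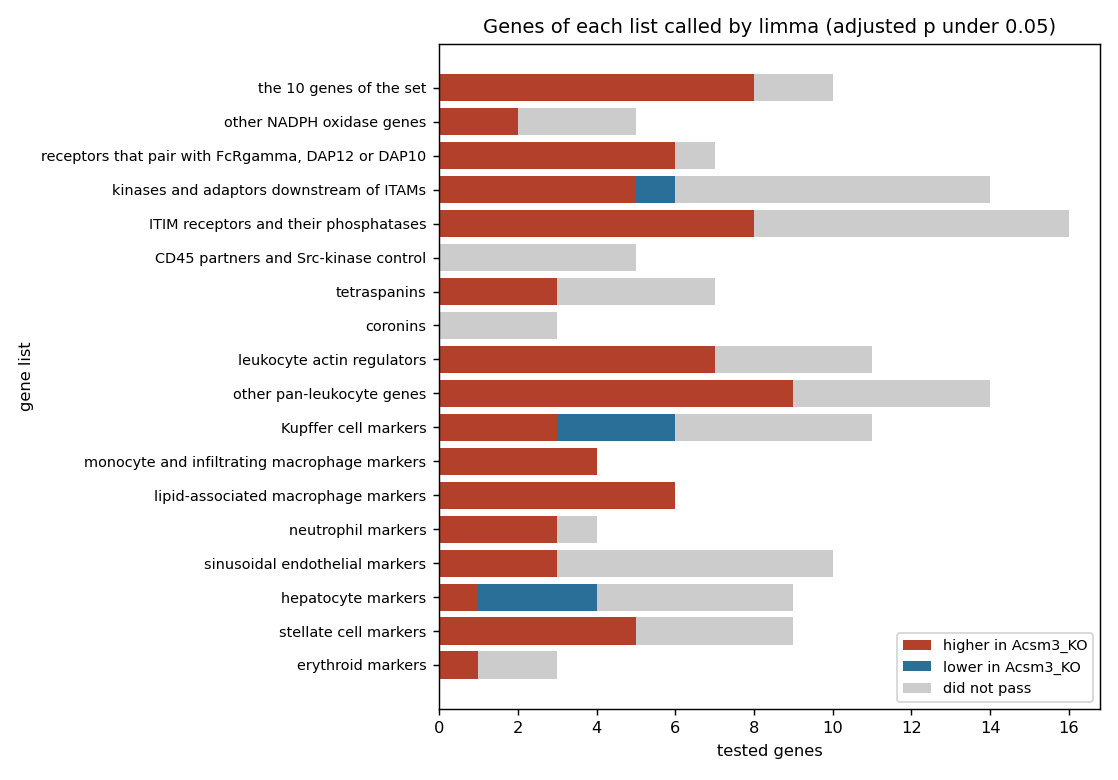
Tested genes of each list with at least 3 tested members, split into those called higher (red) or lower (blue) in knockouts by limma and those that did not pass (grey). Of all tested genes, 13.9% were called higher and 2.61% lower.

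Markers of single leukocyte types did not all move alike. Of monocyte and infiltrating macrophage markers all 4 tested genes rose, Itgax (1.49 ± 0.22), Cx3cr1 (1.35 ± 0.13), Ccr2 (1.07 ± 0.13) and Plac8 (1.03 ± 0.14), and the list's summed level was 11.4 to 17.0 FPKM in knockouts, against 3.31 to 4.43 FPKM in controls. Only Plac8 had a control mean of at least 1 FPKM, and Itgam was listed at 0 in all but 1 mouse. All 6 markers of lipid-associated macrophages rose, with sums of 66.5 to 129 FPKM in knockouts and 24.3 to 27.5 FPKM in controls. They included Gpnmb (3.19 ± 0.34) and Mmp12 (2.60 ± 0.34). Trem2, Gpnmb and Mmp12 entered the test only through the knockouts, and the other 3 had control means of at least 1 FPKM. Leaving out 1 mouse left 1 to 4 calls of the monocyte list, fewest without knockout 2, and 3 to 6 of the lipid-associated list, fewest without control 3. In Ccr2, at 2.04, 2.10 and 1.43 FPKM in knockouts, against 0.371, 0.346 and 0.348 FPKM in controls, knockout 3 was nearer to the other knockouts than in the 8 called genes of the set.

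Of 11 Kupffer cell markers 3 rose and 3 fell, with sums of 300 to 557 FPKM in knockouts and 225 to 319 FPKM in controls. Cd5l (1.19 ± 0.28), C1qb (0.89 ± 0.24) and Folr2 (0.86 ± 0.20) rose, while Cd163 fell by 1.42 (SE 0.33) and Timd4 and Fcna each by 0.81 (SE 0.14). Clec4f, a lectin of mouse Kupffer cells, was at 63.5, 77.6 and 42.4 FPKM in knockouts, against 50, 50.1 and 36.4 FPKM in controls (0.39 ± 0.23, limma adjusted p = 0.272). Of neutrophil markers 3 of 4 tested genes rose, Retnlg (1.22 ± 0.25), S100a8 (0.79 ± 0.17) and Csf3r (0.68 ± 0.16), while Ly6g was listed at 0 in every mouse and Mpo at up to 0.0573 FPKM. These 3 neutrophil genes entered the test only through the knockouts, and the 1 tested gene with a control mean of at least 1 FPKM was not called. The neutrophil sum was 4.52 to 12.0 FPKM in knockouts and 2.0 to 3.32 FPKM in controls. After median-ratio rescaling 1 neutrophil gene and 2 Kupffer genes were higher, and 4 Kupffer genes were lower. Without knockout 3 there were 4 and 6 higher, and without any other mouse limma called none higher in either list.

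No marker of T cells, NK cells or of mast cells, basophils and eosinophils that was found by symbol reached the filter. T cell markers summed to 2.86 to 5.33 FPKM in knockouts and 1.81 to 2.42 FPKM in controls, and NK markers to 0.998 to 2.52 FPKM in knockouts and 0.909 to 1.63 FPKM in controls. Mast cell, basophil and eosinophil markers summed to at most 0.409 FPKM in knockouts and 0.129 FPKM in controls, with Cpa3 and Tpsb2 at 0. Of that list Mcpt4, Mcpt8 and Siglecf were not found under these symbols, so the sums cover the other 7 genes. In the list of B and plasma cells neither tested gene passed, and the sum ranged from 7.56 to 138 FPKM in knockouts, against 10.9 to 23.9 FPKM in controls. The immunoglobulin gene Ighm was at 4.02, 121 and 14.1 FPKM in knockouts, against 8.99, 19.6 and 7.02 FPKM in controls, so that knockout 2 alone was high. Only 1 dendritic marker was tested, Clec9a (0.37 ± 0.17, limma adjusted p = 0.169), and the sum was 4.28 to 6.17 FPKM in knockouts and 3.29 to 3.73 FPKM in controls. The part of each cell type in the rise of the 10 genes was not tested.

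Fcgr2b and Cyba are also made by other liver cells, and markers of such cells follow. Their link to the level of either gene was not tested. Sinusoidal endothelial markers rose in 3 of 10 cases, Stab1 (0.74 ± 0.13), Stab2 (0.67 ± 0.14) and Flt4 (0.36 ± 0.09), and summed to 110 to 143 FPKM in knockouts and 82.7 to 98.9 FPKM in controls. Clec4g (0.05 ± 0.13) and Kdr (-0.01 ± 0.19) did not pass. Stellate cell markers rose in 5 of 9 cases, led by Pdgfrb (1.10 ± 0.13), Dcn (0.70 ± 0.09), Reln (0.63 ± 0.15) and Colec11 (0.58 ± 0.09), with sums of 141 to 163 FPKM in knockouts and 104 to 112 FPKM in controls. Of 9 hepatocyte markers 1 rose, Hnf4a (0.70 ± 0.12), and 3 fell, Pck1 by 0.79 (SE 0.20), Alb by 0.61 (SE 0.13) and Ttr by 0.43 (SE 0.09). Hnf4a was not called higher after median-ratio rescaling, and Pck1, Alb and Ttr were not called lower after quantile normalization. Without knockout 3, 7 endothelial and 7 stellate markers were called, and without any other mouse 0 and 2 to 3. Leaving out 1 mouse left 0 to 2 hepatocyte markers called lower, and 0 without knockout 1 or any 1 control. No cholangiocyte marker was tested, with sums of 1.99 to 2.69 FPKM in knockouts and 0.990 to 1.51 FPKM in controls. The platelet marker Pf4 (0.81 ± 0.25, limma adjusted p = 0.0705) was the 1 tested of its list, summed at 2.38 to 5.35 FPKM in knockouts and 1.51 to 2.64 FPKM in controls. Pf4 entered the test only through the knockouts. The erythroid gene Alas2 rose by 0.59 ± 0.15, a call lost after median-ratio rescaling, and that list summed to 285 to 450 FPKM in knockouts and 218 to 309 FPKM in controls.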

How the data were processed

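Liver mRNA of 6 mice was sequenced, and FPKM of 28450 genes were deposited by the authors as a single table. The submitters' processing notes list StringTie 1.3.0, HISAT2 2.0.4 and Bowtie2 2.2.6, with no roles, and GRCm38 as the genome. Columns were matched to samples by title, and 0 columns of values were left out. Each mouse is a separate animal.

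Genes averaging 1 FPKM or more entered the test, limma 3.58.1 (R 4.3.3, eBayes with a trend) on log2(FPKM + 1). The script was tested on simulated data.

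Fragment totals came from FPKM times union exon length (GENCODE M21), where 98.0% to 98.2% of the low values, under 20 fragments, came to a whole number give or take 0.1. They are estimates, used for depth and 1 added alternative (voom). With 3 mice per group, precision is limited by the spread between animals.

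The 10 genes and 25 gene lists were chosen with earlier results of these data known. Named genes were the 10, Acsm3, up to 4 called genes of largest fold per list (otherwise the 2 of smallest p), and the 8 genes of most like pattern. Others (Alb aside) were named after their values were seen. Of the listed genes, 5 were not analysed here. Some results are not reported here. Python 3.11.15, pandas 2.3.3, numpy 2.4.6, scipy 1.17.1 and matplotlib 3.10.9 were used.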

Additional observations from a re-analysis of the deposited data

How the results depend on the processing

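Each of the 10 genes kept a positive fold change under every alternative in which it was tested. Laptm5 was called under all 12 that keep every mouse, and Fcgr2b under none. With no filter, which tests more genes, the number of the 10 genes called fell to 1, and Fcer1g (0.99), Tyrobp (0.85), Cd53 (0.97), Ptprc (0.71), Coro1a (0.86), Cybb (1.09) and Cyba (1.18) lost their calls (limma adjusted p of 0.0543 to 0.116). With median-ratio rescaling 5 were called, and Tyrobp (0.70), Ptprc (0.61) and Coro1a (0.73) were not. Quantile normalization likewise left 5, without Tyrobp (0.74), Ptprc (0.50) and Coro1a (0.69). Of all tested genes, 2.08% were called higher with no filter, 7.57% with median-ratio rescaling and 6.84% with quantile normalization. With a pseudocount of 5, Ptprc (0.28) and Coro1a (0.48) did not pass, and Coro1a (0.86) did not pass without the trend. With voom on implied fragments, chosen after seeing the data, Tyrobp (0.73) and Coro1a (0.94) did not pass. With array weights Ncf1 passed (0.85). The cause of these losses was not tested.

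The replicate numbers are shared by the groups, and same-numbered mice correlated at 0.111, 0.0918 and 0.187 in their deviations from group means. Each mouse correlated best with its own number, and differently numbered mice correlated at -0.178 to 0.0733. Whether the mice were paired was not tested. With the replicate block Coro1a (0.86) was lost, 7 of the 10 genes were called, and 1672 genes were called higher and 346 lower in all. All 10 genes had an unadjusted limma p under 0.05 in that fit, as did 38.0% of all tested genes.

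Leaving out each mouse in turn gave fold changes of 0.88 to 1.18 (Fcer1g), 0.69 to 1.08 (Tyrobp), 0.82 to 1.17 (Cd53), 1.17 to 1.60 (Laptm5), 0.59 to 0.92 (Ptprc), 0.68 to 1.14 (Coro1a), 0.94 to 1.35 (Cybb), 0.93 to 1.46 (Cyba) and 0.37 to 0.85 (Ncf1), with 0 to 9 genes of the set, 226 to 1968 genes higher and 55 to 282 genes lower in the whole table. Fits with 1 mouse fewer have less power. Genes called higher and lower in the whole table were 544 and 106 with no filter, 830 and 735 with median-ratio rescaling, 752 and 603 with quantile normalization, 2742 and 537 with array weights and 975 and 799 with voom. They were 848 higher with a filter at 5 FPKM, which leaves Ptprc, Coro1a and Ncf1 untested, and 2582 higher at a common sum. The log2 ratio of Fcgr2b over Ptprc differed by -0.42 with a pseudocount of 1, against -0.89 without. Of 900 list counts recomputed, 732 stayed within 1.5 times.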
